A study of Mus musculus with 2 samples.

Results

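The expression of 8 genes was followed through the cell types of mouse dorsal skin: the alpha-arrestin genes *Txnip*, *Arrdc3* and *Arrdc4*, the insulin and phosphoinositide 3-kinase (PI3K) genes *Irs2* and *Pik3r1*, the transcription factor genes *Foxo1* and *Foxo3*, and the stress gene *Sesn1*. They are 8 of the 19046 genes kept from the probe set. The members were chosen by name with earlier keratinocyte ratios of these same libraries known, several of them for being lower in the knockout library, so their keratinocyte values are given as a description and support nothing on their own. Skin from a wildtype C57BL/6J mouse was compared with skin from an *Eppk1*-/- mouse, whose line had been backcrossed to C57BL/6J. *Eppk1* encodes epiplakin, a cytolinker of the plakin family that associates with keratin filaments. Neither mouse was treated, the age of the mice is not given in the sources used here, and the knockout is not described there as limited to any cell type. Punch biopsies were dissociated, and the fixed cells were profiled with probes for protein-coding transcripts (10x Genomics Flex).

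There was 1 library per genotype, a library here being the counts deposited for 1 mouse, so no test between genotypes was possible. Mouse, dissociation and any other handling done separately for each mouse cannot be told apart from genotype. From the wildtype 77638793 unique molecular identifiers (UMIs, each marking 1 captured probe pair) were deposited for 9179 cells (median 5078), and from the *Eppk1*-/- mouse 65118304 UMIs for 8811 cells (median 5093). After cell filtering 8875 and 8617 cells remained. Both libraries had 1211 droplet barcodes in common. The paper names a pooled wash workflow, so cells of both mice may have shared droplets and sequencing. Carry-over of signal between the mice was not tested. Cell types and keratinocyte stages were named from marker genes, so each name, keratinocyte and fibroblast included, stands for cells that look like that type. A level is the number of UMIs of a gene in all cells of a type, scaled to 1000000 UMIs (CPM), in 1 library. Where a pair of levels is given without further words, the wildtype comes first. The ratio is the log2 of *Eppk1*-/- over wildtype after adding 0.5 UMI to each sum. Intervals are exact 95% intervals, Poisson for a level, conditional binomial for a ratio and Clopper-Pearson for a share, and they cover counting error only, not the spread between mice. A ratio of -0.5 or less, or of 0.5 or more, is described as lower or higher, and a gene counts as measured in a cell type with at least 50 UMIs over both libraries. Genes differ in their number of probe pairs, so levels are compared between cells and libraries and not between genes. The share of all measured genes at -0.5 or less was computed for keratinocytes, their larger groups and all fibroblasts only. Ratios in other cell types and in single fibroblast clusters are given without it, and nothing is read from their size.

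The targeted gene was checked first. Across all keratinocytes *Eppk1* measured 3013 CPM, against 795 CPM in *Eppk1*-/- skin (ratio -1.92, interval -1.94 to -1.90). It fell from 1212 to 64.5 CPM in basal-like and from 692 to 85.5 CPM in bulge-like keratinocytes. The deep, *Serpina12*-led sub-cluster 6 kept the most, with 7140 and 3312 CPM (-1.11), and held 61312 of the 110442 wildtype and 15173 of the 19772 *Eppk1*-/- keratinocyte UMIs of *Eppk1*. In the Lce-rich late cornified-like cells it went against the labels, with 93 UMIs in the library labelled wildtype and 344 in the library labelled *Eppk1*-/- (103 and 528 CPM). Where the probes lie relative to the deleted part is not given in the sources used here, so these counts do not show the absence of protein.

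*Txnip* (thioredoxin-interacting protein) binds and inhibits thioredoxin, and it lowers glucose uptake by drawing glucose transporters off the cell surface. Its gene is switched on when glucose metabolites accumulate, through the paired transcription factors MondoA or ChREBP and Mlx, which bind carbohydrate response elements. The related alpha-arrestins *Arrdc3* and *Arrdc4* are adaptors that bring ubiquitin ligases of the Nedd4 family to membrane proteins. FOXO factors are held outside the nucleus when insulin or growth factor signalling, passing through *Irs2* and the PI3K subunit encoded by *Pik3r1*, activates AKT. When that signal is weak they enter the nucleus, and *Txnip*, *Irs2*, *Pik3r1* and *Sesn1* are among the genes linked to them.

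The promoters of *Txnip* and *Arrdc4* are shown because they carry letters searched for these inputs, *Txnip* those of a FOXO factor and of a carbohydrate response element, and *Arrdc4* those of an E-box. In RefSeq promoter windows (GRCm38.p6, 250 bases before to 50 bases after a transcription start) all 8 genes were found, with 12 windows. The letters searched on both strands were GTAAACA for FOXO factors, CACGTG for an E-box, and the tandem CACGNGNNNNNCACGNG for a carbohydrate response element. The *Txnip* stretch lies at chr3:96557807-96557946 on the plus strand (bases -150 to -11), and the *Arrdc4* stretch at chr7:68749319-68749458 on the minus strand (bases -220 to -81). Both are upstream of the gene, 5′ to 3′ on the gene's strand, and capitals mark the matched letters.
*Txnip*: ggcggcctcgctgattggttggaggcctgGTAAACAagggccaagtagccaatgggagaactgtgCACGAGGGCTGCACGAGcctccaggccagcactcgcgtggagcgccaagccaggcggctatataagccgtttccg
*Arrdc4*: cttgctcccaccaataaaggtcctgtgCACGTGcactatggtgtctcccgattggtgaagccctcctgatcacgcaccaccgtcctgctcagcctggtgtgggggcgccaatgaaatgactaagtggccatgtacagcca
The tandem began 85 bases before the *Txnip* start, and it occurred in 16 of the 32851 windows (0.0487%), *Txnip* being the only member among them. The FOXO letters began 121 bases before the *Txnip* start and were present in 3.65% of all windows.

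Of the other members, *Sesn1*, which has 2 windows, held the FOXO letters on the reverse strand. They lay 23 bases after a start that is inside the gene, which itself begins at 41809935. *Irs2* held the E-box letters, which 7.15% of all windows contain, 44 bases before its start. The short stretches around these matches are given on each gene's strand, with the match in capitals.
*Sesn1* (chr10:41810586-41810612, plus strand): aaccttctacTGTTTACcagccttttg
*Irs2* (chr8:11008958-11008983, minus strand): aacgcagagtCACGTGttgttttgct
No match to the 3 motifs was found in the windows of *Arrdc3*, *Pik3r1*, *Foxo1* and *Foxo3*. A match describes letters only, and these data hold no measurement of factor binding.

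Across all keratinocytes (5528 wildtype and 4064 *Eppk1*-/- cells) *Txnip* had a level of 776 CPM in wildtype against 354 CPM in *Eppk1*-/- skin, a ratio of -1.13 (interval -1.17 to -1.10). *Sesn1* was at 41.7 and 23.9 CPM (-0.81, interval -0.95 to -0.67), *Pik3r1* at 135 and 86.7 CPM (-0.64, interval -0.72 to -0.57) and *Arrdc3* at 116 and 77.6 CPM (-0.59, interval -0.67 to -0.51). These 4 of the 8 genes were at -0.5 or less and none was at 0.5 or more. *Foxo3* followed with 69.0 and 54.6 CPM (-0.34, interval -0.43 to -0.24), and *Irs2* with 320 and 269 CPM (-0.25, interval -0.29 to -0.21). *Arrdc4* had 98.9 and 99.0 CPM (0.00, interval -0.07 to 0.08), and *Foxo1* 183 and 184 CPM (0.01, interval -0.05 to 0.06), so neither differed beyond counting error. Of the 11793 genes measured in keratinocytes, 4.63% were at -0.5 or less and 3.26% at 0.5 or more. The median was -0.46 for the 8 genes and -0.02 for all genes. Since keratinocyte ratios were known when the genes were chosen, nothing is read from these shares.

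**Figure D1:**
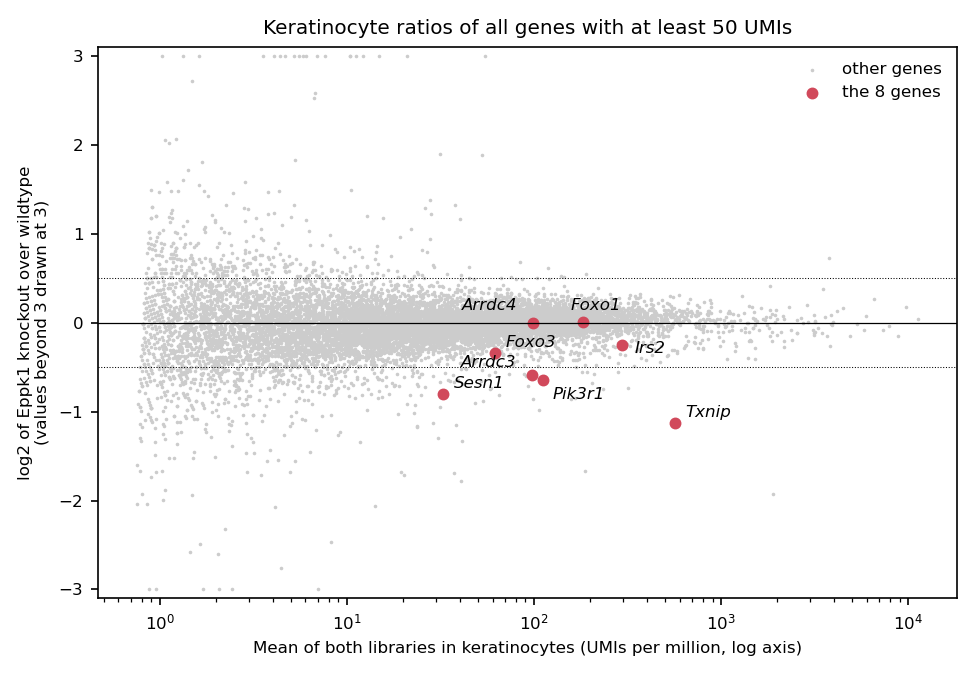
Each point is a gene measured in keratinocytes, with the mean of both libraries (UMIs per 1000000, log axis) on the x axis and the log2 ratio of *Eppk1* knockout over wildtype on the y axis; ratios beyond 3 are drawn at 3. The 8 genes are red. *Txnip* lies at -1.13 below the main band, *Sesn1*, *Pik3r1* and *Arrdc3* lie between it and the dotted line at -0.5, and *Arrdc4* and *Foxo1* lie on the zero line.

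The size rule left *Arrdc3* just inside, at -0.59, and *Foxo3* just outside, at -0.34. Of the 3491 genes found in at least 25% of the keratinocytes of either library, *Txnip* had the 2nd lowest ratio and *Pik3r1* the 8th, and both were past that share in each library (*Txnip* 48.4% and 39.1% of cells, *Pik3r1* 35.7% and 28.6%). *Arrdc3* (31.9% and 23.4%) and *Foxo3* (25.9% and 19.6%) reached it in the wildtype alone, which favours a low ratio, and *Sesn1* (17.2% and 11.1%) in neither. Among all 11793 genes measured in keratinocytes, *Txnip* had the 84th lowest ratio and *Arrdc3* the 403rd. The ranks are of ratios known when the genes were chosen, and are a description. The 1% of keratinocytes richest in *Txnip* held 18.2% of its wildtype and 18.5% of its *Eppk1*-/- UMIs.

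In keratinocytes divided by stage, *Txnip* was highest in cells of the hair follicle. Its wildtype level was 3881 CPM in outer sheath-like and 3558 CPM in bulge-like cells, the stem cell compartment of the follicle, against 221 CPM in basal-like and 204 CPM in spinous-like cells of the epidermis. The next keratinocyte levels belonged to an unnamed sub-cluster led by *Ccl2*, *Pdk4*, *Aldh3a1* and *Fst* (sub-cluster 3, 1456 CPM), to upper follicle-like cells (760 CPM) and to proliferating cells (704 CPM). Sub-cluster 6, led by *Serpina12*, *Ifitm6* and *Krt78* and left unnamed, had 102 CPM at a median depth of 23896 UMIs per cell, and late cornified-like cells had 54.5 CPM. 

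The *Txnip* level was lower in the *Eppk1*-/- library in each of these 9 groups of keratinocytes. Outer sheath-like cells had 1656 CPM (ratio -1.23, interval -1.32 to -1.14), bulge-like cells 1734 CPM (-1.04, interval -1.10 to -0.97) and upper follicle-like cells 446 CPM (-0.77, interval -0.86 to -0.68). Proliferating cells fell to 274 CPM (-1.36, interval -1.59 to -1.14), and spinous-like cells to 112 CPM (-0.87). The ratio of basal-like cells, with 148 CPM, was the nearest to 0 of the 9 (-0.57, interval -0.70 to -0.45). Its interval overlapped that of sub-cluster 3 (940 CPM, ratio -0.63, interval -0.72 to -0.55) and not that of bulge-like or outer sheath-like cells. Sub-cluster 6 fell to 41.5 CPM (-1.30, interval -1.53 to -1.07). A group need not hold the same mix of cells in both libraries. Granular markers summed to 29180.5 and 39271.7 CPM in sub-cluster 6 and to 12308 and 19597 CPM in upper follicle-like cells. In spinous-like cells they went the other way, with 1836 and 1315 CPM. The part of such differences in the *Txnip* ratios was not tested. In late cornified-like cells the comparison was between 49 UMIs and 1 UMI, and 41 of the 49 came from 1 cell, so nothing is read from that ratio. A further group, sub-cluster 11 (43 wildtype and 47 *Eppk1*-/- cells), was led by collagen genes, which are fibroblast markers, and is kept apart from the 9: its ratios were -0.51 for *Txnip*, -0.81 for *Arrdc3* and 0.72 for *Arrdc4* (interval 0.03 to 1.44), and those of the other measured members had intervals that included 0.

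**Figure D2:**
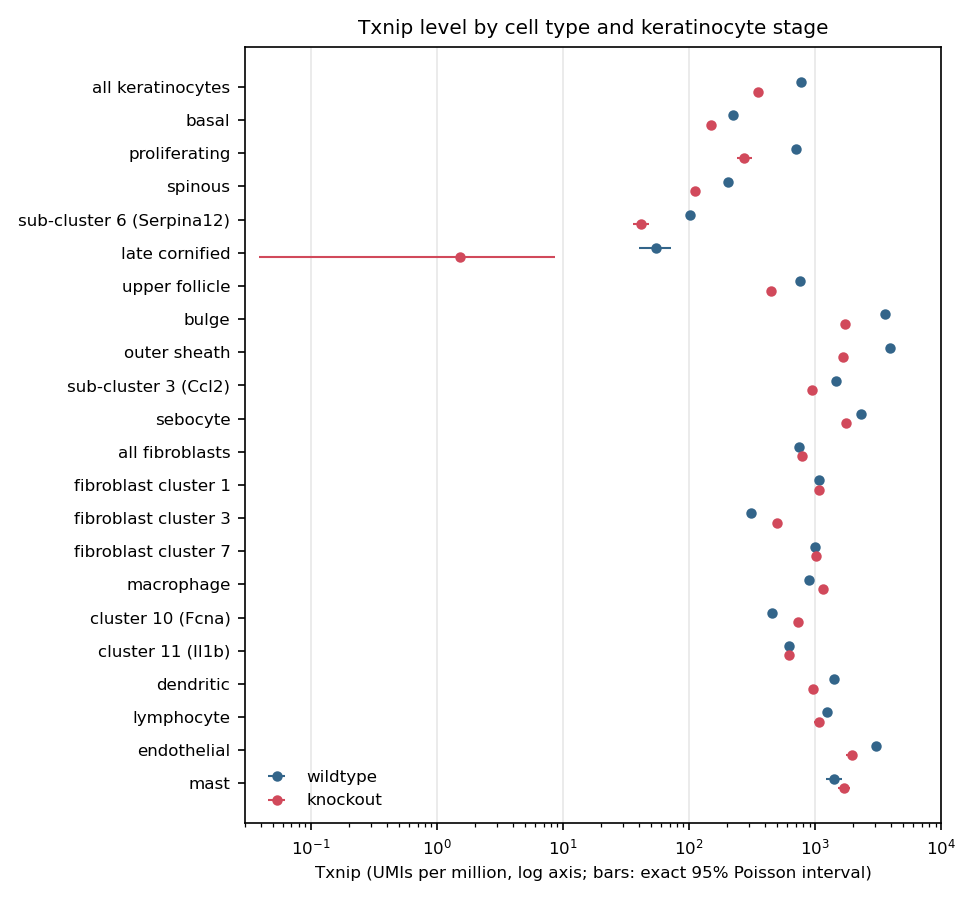
*Txnip* level on the x axis (UMIs per 1000000, log axis) by cell type, keratinocyte stage and fibroblast cluster on the y axis, wildtype in blue and *Eppk1* knockout in red; the bars are exact 95% Poisson intervals. The wildtype lies to the right in all keratinocyte stages, with 3881 against 1656 CPM in outer sheath and 102 against 41.5 CPM in sub-cluster 6. The late cornified pair (54.5 against 1.53 CPM) rests on 49 UMIs and 1 UMI, and nothing is read from it. Fibroblasts lie together at 746 and 790 CPM.

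Most of the *Txnip* counted in keratinocytes lay in 3 of these groups. Bulge-like, outer sheath-like and sub-cluster 3 cells together were 28.6% of wildtype and 24.3% of *Eppk1*-/- keratinocytes and held 62.6% and 58.6% of the keratinocyte *Txnip* UMIs. Bulge-like cells made up 12.3% of wildtype keratinocytes (interval 11.4% to 13.2%). Their *Eppk1*-/- share was 9.13% (interval 8.26% to 10.1%), so cells rich in *Txnip* were also fewer there. Summed bulge markers in all keratinocytes were 1091 and 925 CPM and outer sheath markers 2927 and 2677 CPM, each with 6 of 8 lower. Companion layer markers summed to 2257 and 1641 CPM, with 5 of 5 measured lower. They do not mark the companion layer alone here. Their sums were 2883 and 2462 CPM in basal-like and 2745 and 1790 CPM in spinous-like cells. A *Krt75*-led sub-cluster of 62 wildtype and 11 *Eppk1*-/- cells, too few to describe as a stage, carried 7.65% and 1.78% of keratinocyte *Txnip* at 5091 and 3271 CPM. With the sub-clusters weighted by their wildtype shares of cells, the keratinocyte ratio of *Txnip* was -0.93 in place of -1.13, and with sebocytes counted as keratinocytes -0.89.

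**Figure D3:**
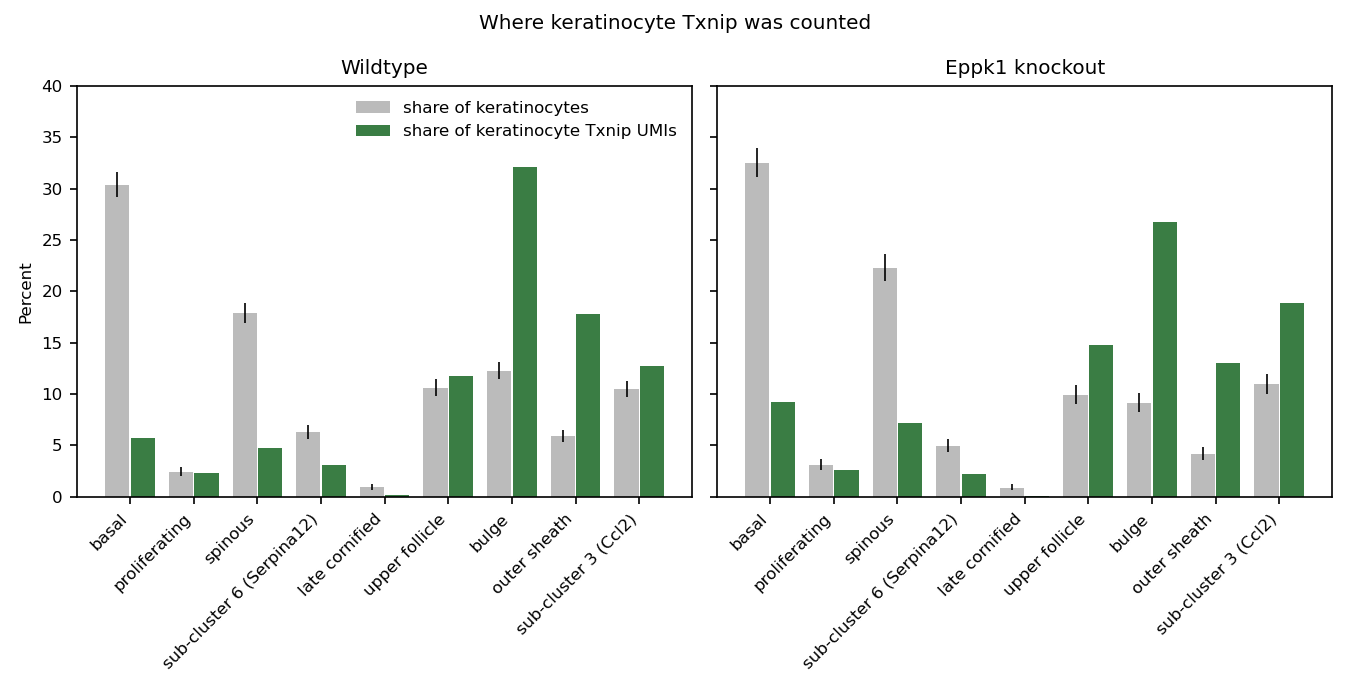
For each keratinocyte stage (x axis), the share of keratinocytes (gray, with exact 95% Clopper-Pearson intervals) and the share of keratinocyte *Txnip* UMIs (green) in percent (y axis), wildtype left and *Eppk1* knockout right. Bulge cells were 12.3% and 9.13% of keratinocytes and held 32.1% and 26.7% of the *Txnip* UMIs, while basal cells were 30.4% and 32.5% and held 5.72% and 9.23%.

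The share of cells with a *Txnip* UMI was compared after each cell was thinned to 2000 UMIs, with 575 wildtype and 501 *Eppk1*-/- keratinocytes too shallow and left out. It was 36.4% (interval 35.1% to 37.8%) of wildtype and 26.7% (interval 25.3% to 28.2%) of *Eppk1*-/- keratinocytes, and 48.4% and 39.1% before thinning. In bulge-like cells it was 85.2% and 75.2%, and in outer sheath-like cells 80.4% and 66.0%. In basal-like cells it was 19.1% (interval 17.1% to 21.3%) and 17.3% (interval 15.1% to 19.6%), which were not distinguishable. The intervals treat cells as independent and leave out the spread between mice. The same comparison was not made for all genes, so nothing is read from the size of these differences. *Txnip* was counted in all cell types here, so none serves as a type that lacks it. The lowest share was that of late cornified-like cells, 6.12% in the wildtype (3 of 49 cells, interval 1.28% to 16.9%).

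Outside keratinocytes the level of *Txnip* was not lower throughout. Fibroblasts (1844 wildtype and 2800 *Eppk1*-/- cells) had 746 and 790 CPM, a ratio of 0.08 (interval 0.05 to 0.12). The difference came from 1 of their 3 clusters: cluster 3, led by *Pla1a*, *Efhd1* and *Ptx3*, had 310 and 498 CPM (0.69, interval 0.61 to 0.77), while cluster 1, led by *Col1a1* and *Cpz*, had a ratio of 0.00 (interval -0.05 to 0.05) and cluster 7, led by *Sfrp2* and *Ccn5*, one of 0.02 (interval -0.05 to 0.10). Without cluster 3 the fibroblast ratio was 0.0028. Cluster 3 was also a larger part of the fibroblasts in the *Eppk1*-/- library, with 567 wildtype and 1169 *Eppk1*-/- cells. The median depth was 9550 wildtype and 7089 *Eppk1*-/- UMIs in cluster 3, and 9072 and 6791.5 UMIs in cluster 7. The part of depth in the ratios of these clusters was not tested.

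Among immune cells, *Txnip* was higher in the *Eppk1*-/- library in cluster 10, an unnamed cluster led by *Fcna* and *Lyve1* (451 and 726 CPM, ratio 0.69, interval 0.57 to 0.81), and it reached 0.36 (interval 0.28 to 0.44) in macrophage-like cells with 897 and 1152 CPM. The naming rule left cluster 10 without a name, although 9 of 9 macrophage markers were enriched in it. The median depth of cluster 10 was 11838 wildtype and 5702 *Eppk1*-/- UMIs. The part of depth in this ratio, and in those of the other members in cluster 10, was not tested. Cluster 11, unnamed and rich in *Il1b*, had 623 and 615 CPM (-0.02, interval -0.16 to 0.12). Dendritic-like cells had 1408 and 956 CPM (-0.56, interval -0.70 to -0.42), and lymphocytes 1245 and 1066 CPM (-0.22, interval -0.40 to -0.05). Mast cells had 1417 and 1677 CPM (0.24, interval -0.02 to 0.51), which counting error covers.

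Endothelial-like cells (104 wildtype and 58 *Eppk1*-/- cells) had the highest *Txnip* level outside the epithelium, 3043 CPM against 1940 CPM in *Eppk1*-/- skin (-0.65, interval -0.82 to -0.48). Their median depth was 1052.5 wildtype and 1821 *Eppk1*-/- UMIs, and its part in this ratio was not tested. Sebocytes had 2312 and 1753 CPM (-0.40, interval -0.47 to -0.33). In the wildtype order of 18 cell types and stages, outer sheath-like, bulge-like, endothelial-like and sebocyte-like cells took the first 4 places without overlapping intervals. In the *Eppk1*-/- library the order began with endothelial-like, sebocyte-like, bulge-like, mast and outer sheath-like cells, whose neighbours overlapped within counting error.

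*Arrdc3*, which acts on beta-adrenergic and other membrane receptors, had its highest wildtype levels in the same follicle cells, 296 CPM in outer sheath-like and 278 CPM in bulge-like cells, and these intervals overlapped. In the *Eppk1*-/- library it stood at 206 CPM (ratio -0.52, interval -0.81 to -0.24) and 176 CPM (-0.66, interval -0.88 to -0.45) there. Proliferating cells had 145 and 74.3 CPM (-0.96, interval -1.43 to -0.52), upper follicle-like cells 125 and 85.8 CPM (-0.54) and basal-like cells 70.8 and 51.7 CPM (-0.45). Sub-cluster 3 (-0.40), spinous-like cells (-0.36) and sub-cluster 6 (-0.30) had smaller differences whose intervals did not include 0.

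*Arrdc3* was also the only member at -0.5 or less in fibroblasts, with 140 and 88.3 CPM (-0.66, interval -0.76 to -0.57). In fibroblasts, 6.92% of the 11830 measured genes were at -0.5 or less and 8.62% at 0.5 or more, so a count of 1 in 8 stays close to the background. Its ratio was -0.73 in cluster 1, -0.49 in cluster 3 and -0.41 in cluster 7, so cluster 1 alone was past -0.5, and without it the fibroblast ratio was -0.47. It ran the other way in macrophage-like cells (50.9 and 69.1 CPM, 0.44), cluster 10 (36.5 and 57.9 CPM, 0.67) and endothelial-like cells (170 and 276 CPM, 0.69, interval 0.11 to 1.29).

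*Arrdc4*, the alpha-arrestin most like *Txnip* in its response to glucose, did not follow *Txnip* here. Its highest level was in dendritic-like cells, 406 and 462 CPM, and within keratinocytes in late cornified-like cells, 215 and 184 CPM. Outside proliferating cells (55.1 and 34.1 CPM, -0.68, from 52 and 28 UMIs) the 9 keratinocyte groups had ratios between -0.22 and 0.23, with intervals that included 0 except in sub-cluster 6 (128 and 142 CPM, 0.14, interval 0.0017 to 0.29). Bulge-like cells had 104 and 113 CPM and outer sheath-like cells 109 and 128 CPM. *Arrdc4* was lower in macrophage-like cells (116 and 75.2 CPM, -0.62) and in cluster 10 (93.4 and 40.3 CPM, -1.20, interval -1.66 to -0.79), where *Txnip* was higher. In fibroblasts it stood at 36.6 and 45.4 CPM (0.31, interval 0.15 to 0.47).

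**Figure D4:**
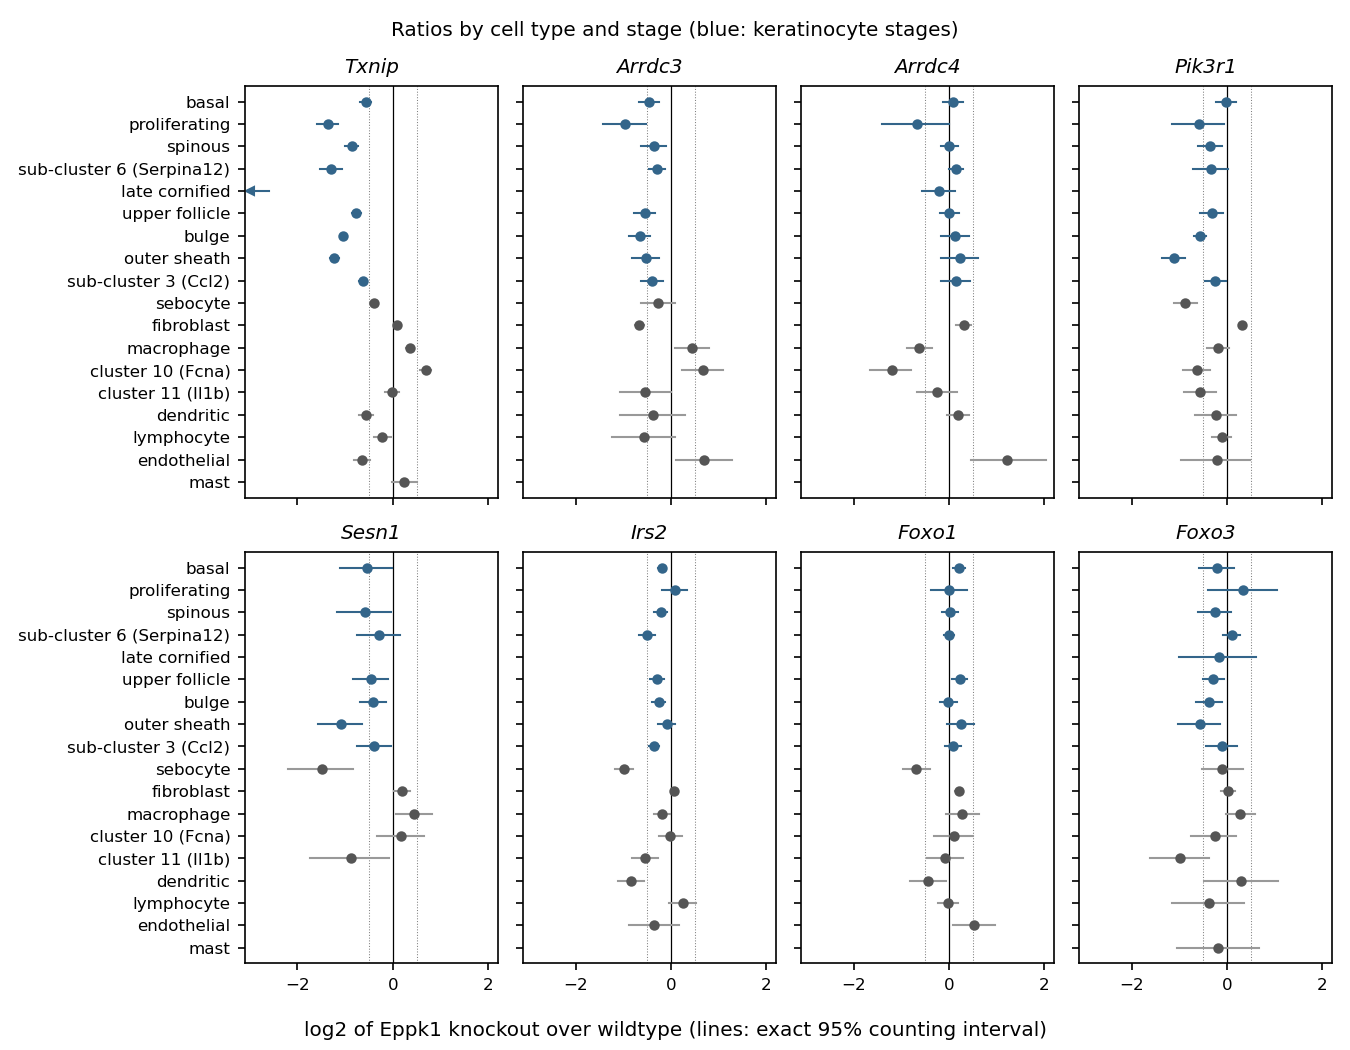
One panel per gene, with the log2 ratio of *Eppk1* knockout over wildtype on the x axis by cell type and stage (y axis; keratinocyte stages in blue, others in gray) and exact 95% counting intervals as lines; dotted lines mark -0.5 and 0.5, and groups under 50 UMIs are left out. *Txnip* lies left of 0 in every keratinocyte stage, but its late cornified value rests on 1 *Eppk1*-/- UMI and is not read. *Arrdc4* and *Foxo1* scatter around 0 in these stages, and *Pik3r1* reaches its lowest keratinocyte value, -1.11, in outer sheath.

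*Irs2*, the docking protein that passes the insulin signal to PI3K, peaked in sub-cluster 3 with 946 and 739 CPM (-0.36, interval -0.46 to -0.26), followed by outer sheath-like (601 and 566 CPM) and bulge-like cells (594 and 497 CPM, -0.25), which overlapped in the wildtype. Basal-like cells had 434 and 380 CPM (-0.19). The only keratinocyte group at -0.5 or less was sub-cluster 6, with 125 and 87.8 CPM (-0.51, interval -0.68 to -0.34). Larger differences lay in sebocytes (407 and 207 CPM, -0.98, interval -1.17 to -0.79) and dendritic-like cells (430 and 241 CPM, -0.84, interval -1.11 to -0.57). The median depth of sebocytes was 6102 wildtype and 12783 *Eppk1*-/- UMIs, and its part in these ratios was not tested. In sebocytes *Zscan26*, at -0.57, had only the 1362nd lowest ratio of the measured genes, so ratios past -0.5 were common there. Fibroblasts had 266 and 280 CPM (0.07).

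*Pik3r1*, which encodes the regulatory p85 subunit of PI3K, was highest in lymphocytes, with 941 and 869 CPM (-0.11, interval -0.31 to 0.09). Within keratinocytes it was concentrated in the follicle, with 763 and 517 CPM in bulge-like (-0.56, interval -0.69 to -0.44) and 563 and 260 CPM in outer sheath-like cells (-1.11, interval -1.36 to -0.88). Basal-like cells had 60.2 and 59.0 CPM, a ratio of -0.03 (interval -0.24 to 0.18), so the lower keratinocyte sum did not extend to them. Spinous-like (-0.35) and upper follicle-like cells (-0.32) lay between. Bulge-like cells held 39.5% of wildtype and 32.5% of *Eppk1*-/- keratinocyte *Pik3r1* UMIs.

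In fibroblasts *Pik3r1* was on the other side of 0, with 249 and 310 CPM (0.31, interval 0.25 to 0.37). The ratio was 0.59 in cluster 3, 0.37 in cluster 7 and 0.02 in cluster 1. Sebocytes had 243 and 132 CPM (-0.88), cluster 10 152 and 98.2 CPM (-0.63) and cluster 11 144 and 97.6 CPM (-0.56). This was only the 1724th lowest ratio in cluster 10 and the 1418th in cluster 11, so ratios of that size were common there. Over all cells of each library the sums cancelled, with 174 and 176 CPM (0.02).

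*Foxo1*, the FOXO factor best known for insulin-controlled metabolism, was highest in lymphocytes, with 816 and 804 CPM (-0.02), followed by endothelial-like cells with 314 and 452 CPM (0.53, interval 0.09 to 0.97). In keratinocytes it was at 285 and 282 CPM in bulge-like and 210 and 250 CPM in outer sheath-like cells. No stage was at -0.5 or less, and basal-like (153 and 177 CPM, 0.21, interval 0.08 to 0.33) and upper follicle-like cells (0.22, interval 0.07 to 0.38) lay slightly above 0. Sebocytes had 159 and 99.0 CPM (-0.68) and dendritic-like cells 186 and 137 CPM (-0.44). The transcript level of a FOXO gene does not show how much of the protein is in the nucleus.

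*Foxo3*, which shares most of its targets with *Foxo1*, had 150 and 116 CPM in bulge-like (-0.37, interval -0.65 to -0.10) and 130 and 87.1 CPM in outer sheath-like cells (-0.57, interval -1.03 to -0.15). Upper follicle-like cells had 115 and 94.0 CPM (-0.29). Basal-like cells had the lowest levels of any stage (-0.21, interval -0.58 to 0.15), but these overlapped the levels of spinous-like cells within counting error in both libraries. Sub-cluster 6 had 79.0 and 84.3 CPM (0.09). Outside keratinocytes, mast cells had the highest *Foxo3* levels, 165 and 144 CPM, which overlapped those of bulge-like cells within counting error. Cluster 11 had 50.6 and 25.6 CPM (-0.98, interval -1.61 to -0.37), and fibroblasts had 47.9 and 48.8 CPM (0.03).

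*Sesn1*, a sestrin that restrains the growth kinase mTOR under stress, had its highest wildtype levels in bulge-like and outer sheath-like cells. It stood at 161 and 121 CPM in bulge-like (-0.41, interval -0.68 to -0.15) and 155 and 72.6 CPM in outer sheath-like cells (-1.09, interval -1.58 to -0.65), and the wildtype intervals overlapped. Basal-like cells had 12.1 and 8.22 CPM (-0.55, interval -1.11 to -0.02) and spinous-like cells 11.4 and 7.60 CPM (-0.58, interval -1.17 to -0.03), from 89 and 45 and from 75 and 43 UMIs. Proliferating cells had 36 wildtype and 4 *Eppk1*-/- UMIs, under the 50 required, and late cornified-like cells had none in either library, which allows levels up to 4.10 and 5.66 CPM (the upper ends of the intervals). Sebocytes had 43.0 and 15.2 CPM (-1.48, interval -2.20 to -0.83). Macrophage-like cells had 45.9 and 62.2 CPM (0.43), and fibroblasts 35.4 and 40.3 CPM (0.18), a difference that came from cluster 3 (28.1 and 47.5 CPM, 0.75) and turned to -0.26 without it.

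By stage, the number of members at -0.5 or less was highest in the outer sheath-like cells: *Txnip*, *Sesn1*, *Foxo3*, *Arrdc3* and *Pik3r1*, 5 of 8, where 8.21% of measured genes were at -0.5 or less. Bulge-like cells had 3 (*Txnip*, *Arrdc3* and *Pik3r1*, background 6.66%), and upper follicle-like cells 2 (*Txnip* and *Arrdc3*, background 4.25%). Basal-like and spinous-like cells each had *Txnip* and *Sesn1* (backgrounds 3.85% and 4.02%). Proliferating cells had 4 of 7 measured members (*Txnip*, *Arrdc4*, *Arrdc3* and *Pik3r1*, background 8.74%). Sub-cluster 3 had *Txnip* alone (background 5.24%), and sub-cluster 6 had *Txnip* and *Irs2* (background 5.23%). In late cornified-like cells (background 7.45%) 3 members were measured, and *Txnip*, with 1 UMI in the *Eppk1*-/- library, is not counted. These stages are parts of the keratinocytes with which the genes were chosen, so the counts are descriptions.

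Lists of genes around the 8 members are described by their own counts in keratinocytes, where 4.63% of all genes were at -0.5 or less. The members were chosen partly for low ratios, so the lists are not set against them. The lists were also chosen with earlier results of these data known, so their counts, here and in fibroblasts, are descriptions. Of 7 measured genes among the other alpha-arrestins and their ubiquitin ligases none passed 0.5 in either direction (median -0.03). The lowest were *Arrdc1* (-0.18), *Wwp2* (-0.14) and *Itch* (-0.08), and the highest *Nedd4l* (242 and 282 CPM, 0.22), a ligase that alpha-arrestins recruit. None of 9 thioredoxin system genes passed (median -0.01), with mitochondrial thioredoxin, *Txn2*, the lowest at 90.2 and 66.4 CPM (-0.44). *Prdx3* (-0.35) and *Srxn1* (-0.28) followed, and *Txnrd2* (0.25), *Prdx1* (0.14) and *Txnrd3* (0.10) were at the upper end.

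Of 11 genes of MondoA, ChREBP and glucose entry, 1 was at 0.5 or more and none at -0.5 or less (median -0.14). *Pfkfb3*, which drives glycolysis through fructose bisphosphate, was lowest with 161 and 120 CPM (-0.42, interval -0.49 to -0.36), followed by *Slc2a3* (-0.27) and *Mlxipl* (-0.18), both near 1 or 2 CPM. *Mlxip*, which encodes MondoA, had 127 and 143 CPM (0.18), *Hk1* 0.13, and *Slc2a4* 0.50 from 26 and 25 UMIs, with an interval from -0.35 to 1.35. Of 20 measured insulin, PI3K and AKT genes, 1 was at 0.5 or more, the receptor adaptor *Grb10* (7.56 and 11.2 CPM, 0.57), and none at -0.5 or less (median 0.05). *Pik3r3* (0.34) and *Pik3cb* (0.26) followed it, and *Irs1* (-0.25) and *Tsc1* (-0.19) were at the lower end.

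Of 33 measured FOXO target genes, 17 had ratios below 0 and 16 above, with a median of -0.01. *Depp1*, an autophagy-linked FOXO target (9.33 and 3.38 CPM, -1.46), and the death ligand gene *Tnfsf10* (1.99 and 1.17 CPM, -0.76) were at -0.5 or less and none was at 0.5 or more. Both are leading genes of a small keratinocyte sub-cluster. Without the *Krt75*-led cells *Depp1* was at 3.73 and 2.14 CPM (-0.79, interval -1.29 to -0.33), and without its own sub-cluster *Tnfsf10* was at 0.21 (interval -0.78 to 1.15). *Insig1* came next (102 and 73.6 CPM, -0.48), and *Trib1* (0.30), *Bbc3* (0.24) and *Gadd45a* (0.22) were highest. The 9 other FOXO factors and partners lay between *Sgk1* (-0.18), *Sgk3* (-0.14) and *Sirt1* (-0.05) and *Ywhaz* (0.09), *Foxo6* (0.16) and *Xpo1* (0.16), with a median of 0.03.

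The 10 other sestrin and stress genes had a median of -0.03 and none passed 0.5. *Sesn2*, the paralogue of *Sesn1*, had 234 and 283 CPM (0.27, interval 0.23 to 0.32), and *Mdm2*, which answers to the tumour suppressor *Trp53*, 529 and 659 CPM (0.32). *Atf4* (0.08) followed, and *Ddb2* (-0.14), *Zmat3* (-0.14) and *Ccng1* (-0.09) were lowest. Of 10 glucocorticoid-induced genes, 9 were below 0 and 4 at -0.5 or less, beside 4.63% of all genes (median -0.20). The 4 were *Fkbp5* (63.3 and 18.4 CPM, -1.78), *Tsc22d3* (-0.86), *Zbtb16* (-0.85) and *Cebpd* (-0.60). Because this list was chosen with earlier results known, nothing is read from its count beside that share.

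**Figure D5:**
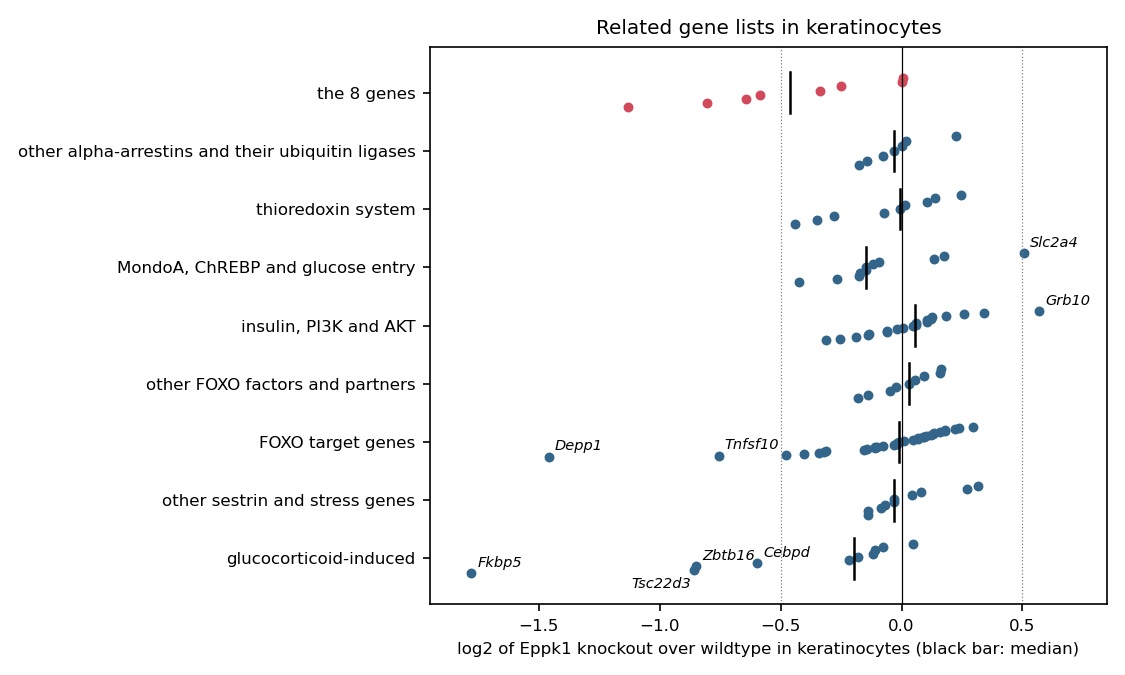
Each point is a measured gene of a list (y axis) at its log2 ratio of *Eppk1* knockout over wildtype in keratinocytes (x axis); black bars are medians and dotted lines mark -0.5 and 0.5. The 8 genes have a median of -0.46, but they were chosen partly for low ratios and are not set against the lists. The FOXO target genes centre on -0.01 with *Depp1* and *Tnfsf10* apart, and the glucocorticoid-induced genes spread from *Fkbp5* at -1.78 to just above 0.

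In fibroblasts the background was 6.92% of genes at -0.5 or less and 8.62% at 0.5 or more, and the list counts are to be read beside it. Of 31 measured FOXO targets 4 were at -0.5 or less, *Pdk4* (-1.22), *Eif4ebp1* (-0.78), *Fbxo32* (-0.63) and *Bnip3* (-0.59), and 3 at 0.5 or more, *Gadd45a* (0.52), *Sesn3* (0.56) and *Ppargc1a* (1.77), with a median of -0.14. *Mlxipl* (-0.93) and *Hk2* (-0.63) were the 2 of 10 glucose genes at -0.5 or less, and *Tsc22d3* (-0.93) the 1 of 10 glucocorticoid-induced genes. All 10 of the latter had ratios below 0 in fibroblasts, with a median of -0.29 beside 0.05 for all genes. *Pik3r2* (0.51) and *Trib3* (-0.51) were the 1 gene past 0.5 in their lists. The fibroblast genes in this paragraph were picked with their values in view.

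The level of *Txnip* across 14 cell types and stages in both libraries (28 values) was most like that of *Klhl24* (Pearson r = 0.95), followed by *Akap10* (0.92), *Ndrg3* (0.92), *Zscan26* (0.91) and *Surf1* (0.91), among 7662 genes. Part of this rested on late cornified-like cells, where these 5 genes had 6 UMIs or fewer per library. Over the 26 values without those cells, a choice made after seeing the data, *Klhl24* (0.88) was still the nearest, and the other 4 were between 0.77 and 0.82. Those 4 were no longer the next nearest, with *Surf1* in 9th, *Zscan26* in 12th, *Ndrg3* in 26th and *Akap10* in 34th place. These values share libraries and depth, and the coefficients are descriptions. In the wildtype *Klhl24*, like *Txnip*, was highest in bulge-like (103 CPM) and outer sheath-like cells (102 CPM). In the *Eppk1*-/- library *Klhl24* had 89.9 and 65.3 CPM there, and in proliferating cells it fell from 46.6 to 18.3 CPM. Among the members, *Sesn1* (0.85), *Pik3r1* (0.84) and *Arrdc3* (0.81) came closest to *Txnip*, *Irs2* (0.68), *Foxo1* (0.62) and *Foxo3* (0.62) less so, and *Arrdc4* had the opposite sign (-0.23). Without late cornified-like cells *Foxo3* (0.77), *Sesn1* (0.74), *Pik3r1* (0.71) and *Arrdc3* (0.68) came closest, and *Irs2* (0.34), *Foxo1* (0.31) and *Arrdc4* (-0.04) were far from *Txnip*. For the ratio over 14 cell types, the most similar of 422 genes were *Hspa8* (0.92), *Fbrs* (0.80), *Per1* (0.80), *Litaf* (0.73) and *Nfkbib* (0.73), but these rested on the 1 UMI of late cornified-like cells, and without that stage they were between 0.29 and 0.52.

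Markers of other cell types were low over all keratinocytes together and are given beside these ratios, their part in which was not tested. The 8 fibroblast markers summed to 525 and 617 CPM, with 2 of 8 lower, against 85755 and 85476 CPM in fibroblasts. The 9 macrophage markers summed to 85.1 and 89.3 CPM, and the 8 dendritic markers to 247 and 312 CPM. In sub-cluster 11, which is counted among the keratinocytes, the fibroblast markers summed to 25821 and 21429 CPM. Sub-cluster 13 (57 wildtype and 26 *Eppk1*-/- cells), also counted among them and unnamed, was led by *Retnla*, *H2-Ab1* and *H2-Aa*. The 12 keratinocyte markers summed to 44260 and 44812 CPM in keratinocytes. The 8 bulge markers summed to 6360 and 6773 CPM in bulge-like cells, with 1 of 8 lower. Both lists were used to name these cells, so nothing is read from their levels there.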

How the data were processed

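Single cells of dorsal skin from 1 wildtype and 1 *Eppk1*-/- mouse were profiled with Flex probes, and the counts of each mouse are treated as 1 library. The deposited UMI counts per gene and cell were made by the authors with Cell Ranger 8.0.1 on mm10 (GRCm38), and were used as deposited. The study's own limits were applied to cells (UMIs between 200 and 45000, genes between 100 and 7500, mitochondrial share up to 10%), and 13 mitochondrial genes were then left out. The UMI cap removed 265 wildtype and 185 *Eppk1*-/- cells, which are the deepest cells.

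Clusters were made with Seurat 5.3.0 (log-normalization to 10000, 2000 variable features without *Eppk1* and the listed genes, 50 principal components, RPCA integration, Louvain resolution 0.5), and keratinocytes were clustered again likewise. Clusters were named from fixed markers; the scoring rule for names was set after the clusters were seen. Doublets were not removed in the main analysis, and in an alternative the top 5% by Scrublet score were left out. Cell types and stages are described with at least 30 cells in each library.

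UMIs were summed per cell type and library with numpy 2.4.6 and scipy 1.17.1, and the method was tested on simulated data. In simulated keratinocytes all 200 genes given a log2 change of 1 passed the size rule, and so did 196 of 11563 unchanged genes. The simulated counts carried counting error only, with no spread between mice or cells. They therefore give no rate of false calls for the real libraries. TMM factors came from edgeR 4.0.16. Promoter sequences are from RefSeq (GRCm38.p6) and gene positions from GENCODE M21.

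The members and lists were chosen with earlier results of these data known. Named genes were the 8 members, *Eppk1*, up to 3 genes at each end of each list in keratinocytes, with the glucocorticoid-induced list in brief, and the 5 genes most like *Txnip* by level and by ratio. *Cebpd* and the genes of the lists named for fibroblasts lie outside this rule and were picked with their values in view. A gene that this rule names is not reported here. Alternatives covered the cell filter, the clustering, doublets, scaling, weighting and depth.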

Additional observations from a re-analysis of the deposited data

Results flagged for a closer look

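4 members had ratios on opposite sides of 0 in keratinocytes and fibroblasts, with counting intervals that excluded 0 in each. The share of all genes that do so was not computed, so nothing is read from this count. Keratinocyte ratios were known when the members were chosen, several of them for low ones, which favours a negative difference. With 1 library per genotype the difference between the cell types was not tested. The keratinocyte ratio minus the fibroblast ratio was -1.21 for *Txnip* (-1.13 and 0.08), -0.96 for *Pik3r1* (-0.64 and 0.31), -0.99 for *Sesn1* (-0.81 and 0.18) and -0.32 for *Irs2* (-0.25 and 0.07). The fibroblast side of *Txnip* and *Sesn1* rested on cluster 3, without which their fibroblast ratios were 0.0028 and -0.26, and that of *Irs2* on cluster 1, without which it was 0.0073. With a marker gate per cell the fibroblast ratios of *Txnip* and *Sesn1* were -0.012 and -0.0137.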

How the results depend on the processing

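The keratinocyte ratio of *Txnip* (-1.13) stayed at -0.5 or less under all 14 alternatives, from -1.25 to -0.89. It moved beyond its counting interval with a marker gate per cell (-1.18), sub-clusters at wildtype shares (-0.93), cells thinned to 2000 UMIs (-1.25), sebocytes counted as keratinocytes (-0.89) and without the small unnamed sub-clusters (-1.07). *Pik3r1* (-0.82 to -0.50) and *Sesn1* (-1.01 to -0.60) also stayed at -0.5 or less, and *Arrdc3* was at -0.49 with sub-clusters at wildtype shares, which left 3 members in place of 4. Counting cluster 22 (1 wildtype and 56 *Eppk1*-/- cells), which was left unnamed, as keratinocytes kept *Txnip* at -1.13.

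The fibroblast ratio of *Txnip* (0.08) was -0.012 with the marker gate, 0.041 with TMM scaling, 0.0313 centred on the median, 0.0235 as a mean over cells, 0.0048 with thinned cells, 0.34 without cluster 1 and 0.0028 without cluster 3. Without cluster 1 the number of members at -0.5 or less in fibroblasts was 0 in place of 1. Where a cause of these shifts is not given by the setting itself, the cause was not tested. Alternatives with cells added or left out as sebocytes, cluster 22, small sub-clusters or fibroblast clusters were chosen after seeing the data. No paired analysis was possible because each genotype has 1 library, and for the same reason no replicate could be left out.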

Other observations

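Shares of cells with a UMI of the other members were compared in the follicle after thinning to 2000 UMIs per cell, with 547 and 282 bulge-like cells deep enough. *Pik3r1* was found in 65.6% (interval 61.5% to 69.6%) of wildtype and 52.1% (interval 46.1% to 58.1%) of *Eppk1*-/- bulge-like cells, and before thinning in 76.4% and 61.2%. *Arrdc3* was found in 35.6% and 27.7%, *Sesn1* in 27.2% and 19.1%, and *Irs2* in 60.3% and 53.5%. Intervals overlapped for *Arrdc3*, *Sesn1* and *Irs2* but not for *Pik3r1*. *Foxo1* (40.2% and 35.8%), *Foxo3* (25.2% and 20.9%) and *Arrdc4* (19.6% and 16.7%) also overlapped. In outer sheath-like cells (276 and 141 deep enough) *Pik3r1* was found in 52.5% (interval 46.5% to 58.6%) and 36.9% (interval 28.9% to 45.4%). These intervals treat cells as independent and leave out the spread between mice. The members were chosen with keratinocyte ratios known, and the share of all genes without overlap was not computed. Nothing is therefore read from which intervals overlapped.

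Over all cells of a library, where the mix of cell types enters, *Arrdc3* was at 114 and 79.7 CPM (-0.51), *Txnip* at 816 and 643 CPM (-0.35), *Sesn1* at 39.4 and 31.6 CPM (-0.32) and *Foxo3* at 62.4 and 53.4 CPM (-0.22). *Irs2* had 299 and 262 CPM (-0.19), *Arrdc4* 85.2 and 77.3 CPM (-0.14) and *Foxo1* 175 and 182 CPM (0.06). Keratinocytes were 5528 of 8875 wildtype and 4064 of 8617 *Eppk1*-/- cells kept, so the whole-library sums of these genes weigh the cell types differently.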
